A study of Mus musculus with 14 samples.

Results

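Genes that carry a cell through mitosis were examined in the mouse uterus shortly before implantation. The list held 48 genes of mitotic entry, the spindle checkpoint, anaphase, the chromosomal passenger complex, centromeres, the spindle, cytokinesis and chromosome structure. A gene was measured through the Affymetrix probe sets that the platform annotation assigns to its symbol alone, and through the set with the highest mean log2 signal where it had several. In this way 47 of the 48 genes were found among 18193 genes with a symbol, on 111 probe sets, and 41 of them had a probe set above the filter on dim signals. Ccnb1, which encodes a cyclin of Cdk1, was not matched to a probe set and was not analysed here.

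Uteri were taken from mated C57BL/6 females at day 3.5 of gestation, the morning of the vaginal plug being day 0.5 in the labels' protocol. The females were wild type or Folr4-/-, that is, homozygous for a mutation of the gene now named Izumo1r; the labels do not give the kind of mutation. Folinic acid, a reduced folate, was given by 2 intraperitoneal injections of 12.5 mg/kg, at 10 and at 3 days before mating, and the other females received saline. The 14 arrays, 1 for each labelled biological replicate, comprised 4 wild-type uteri with saline, 3 wild-type uteri with folinic acid, 3 mutant uteri with saline and 4 mutant uteri with folinic acid. All females ate the same chow, and the question of the series was whether the effect of this folate on uterine RNA depends on genotype.

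Mitosis begins when the kinase Cdk1, bound to a B-type or A-type cyclin, is released from inhibition by Wee1 and activated, and it ends when the anaphase-promoting complex, guided by Cdc20, marks cyclins and securin for destruction. Most of the genes involved are silent in resting cells and are transcribed together late in the cell cycle, so their RNA in a tissue comes mainly from dividing cells. In the mouse uterus before implantation, ovarian steroids stop division in the luminal epithelium and start it in the stroma beneath. Much of the late-cycle transcription is directed by the cell cycle genes homology region (CHR), to which the MuvB complex binds, and by CCAAT boxes, to which the factor NF-Y binds.

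Promoter sequences of 7 of the genes are shown because most of the list moved together across uteri, as described further on. Each is the 120 bases before the annotated start in RefSeq (GRCm38.p6), written 5′ to 3′ on the strand of the gene, with CHR letters (TTTGAA or TTCGAA) and CCAAT letters in capitals on either strand, so that TTCAAA and ATTGG are the same motifs read on the other strand. The first 6 follow the mean of the list closely. Pttg1, which does not, was added after its values were seen. Some genes without either motif also follow the mean, as given below. Any part of the motifs in the shared movement was not tested.
Cdk1, chr10:69352913-69353032, minus strand: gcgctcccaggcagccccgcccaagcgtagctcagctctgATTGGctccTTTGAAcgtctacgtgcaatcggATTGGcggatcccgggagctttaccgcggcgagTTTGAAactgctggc
Cdc20, chr4:118437344-118437463, minus strand: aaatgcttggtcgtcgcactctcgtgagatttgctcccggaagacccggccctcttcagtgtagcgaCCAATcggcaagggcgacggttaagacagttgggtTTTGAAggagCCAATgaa
Ube2c, chr2:164769809-164769928, plus strand: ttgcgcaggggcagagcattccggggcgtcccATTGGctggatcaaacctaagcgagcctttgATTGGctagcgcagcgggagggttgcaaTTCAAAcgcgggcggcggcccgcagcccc
Top2a, chr11:99024190-99024309, minus strand: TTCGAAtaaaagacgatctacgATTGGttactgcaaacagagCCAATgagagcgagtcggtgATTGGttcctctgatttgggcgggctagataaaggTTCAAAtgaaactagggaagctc
Prc1, chr7:80294356-80294475, plus strand: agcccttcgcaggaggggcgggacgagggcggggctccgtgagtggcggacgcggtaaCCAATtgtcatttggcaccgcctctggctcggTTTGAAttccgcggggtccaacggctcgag
Mki67, chr7:135716380-135716499, minus strand: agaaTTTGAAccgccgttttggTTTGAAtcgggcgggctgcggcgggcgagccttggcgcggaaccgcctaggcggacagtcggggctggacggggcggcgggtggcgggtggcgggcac
Pttg1, chr11:43425982-43426101, minus strand: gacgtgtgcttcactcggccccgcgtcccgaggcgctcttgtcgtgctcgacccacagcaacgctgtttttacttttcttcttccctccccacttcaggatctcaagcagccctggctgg

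Cdk1, the mitotic kinase itself, had CHR letters starting at -71 and at -15, counted so that -1 is the base before the start, and CCAAT letters at -80 and -48 within the stretch shown. Cdc20, Ube2c and Prc1 each had 1 CHR close to the start, at -18, -29 and -30, and CCAAT letters farther out at -53, -57 and -62; Cdc20 had further CCAAT letters at -8, nearer the start than its CHR. Top2a had CHR letters at -120 and -23, and Mki67 had them at -116 and -98. Of the 48 genes, 39 had a window of 250 bases before to 50 bases after a start in RefSeq; Ccna2, Wee1, Foxm1, Aurkb, Incenp, Tpx2, Dlgap5, Kif20a and Smc4 did not. CHR letters lay in the windows of 30 of the 39 genes (76.9%), against 21.7% of all 27025 genes with windows and 16.1% of the genes above the filter. Between -60 and 50 they lay in 27 of the 39 (69.2%) and in 6.79% of all genes. CCAAT letters lay in 30 of the 39 (76.9%) against 41.1%, and both motifs in 27 (69.2%) against 8.61%; the motifs overlapped in 1 window of the list. Among 74 further mitosis genes with windows, 62.2% had CHR letters, 66.2% CCAAT letters and 41.9% both. Among 44 DNA replication genes with windows, 22.7% had CHR letters, 63.6% CCAAT letters and 13.6% both. Melk, Mad2l1, Pttg1, Birc5, Nusap1 and Ncaph had neither motif in these windows, and 5 of these 6, all but Pttg1, had correlations with the rest of the list of 0.75 to 0.92 across the uteri. A match of letters is a description of the sequence and not a measured binding site.

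**Figure D1:**
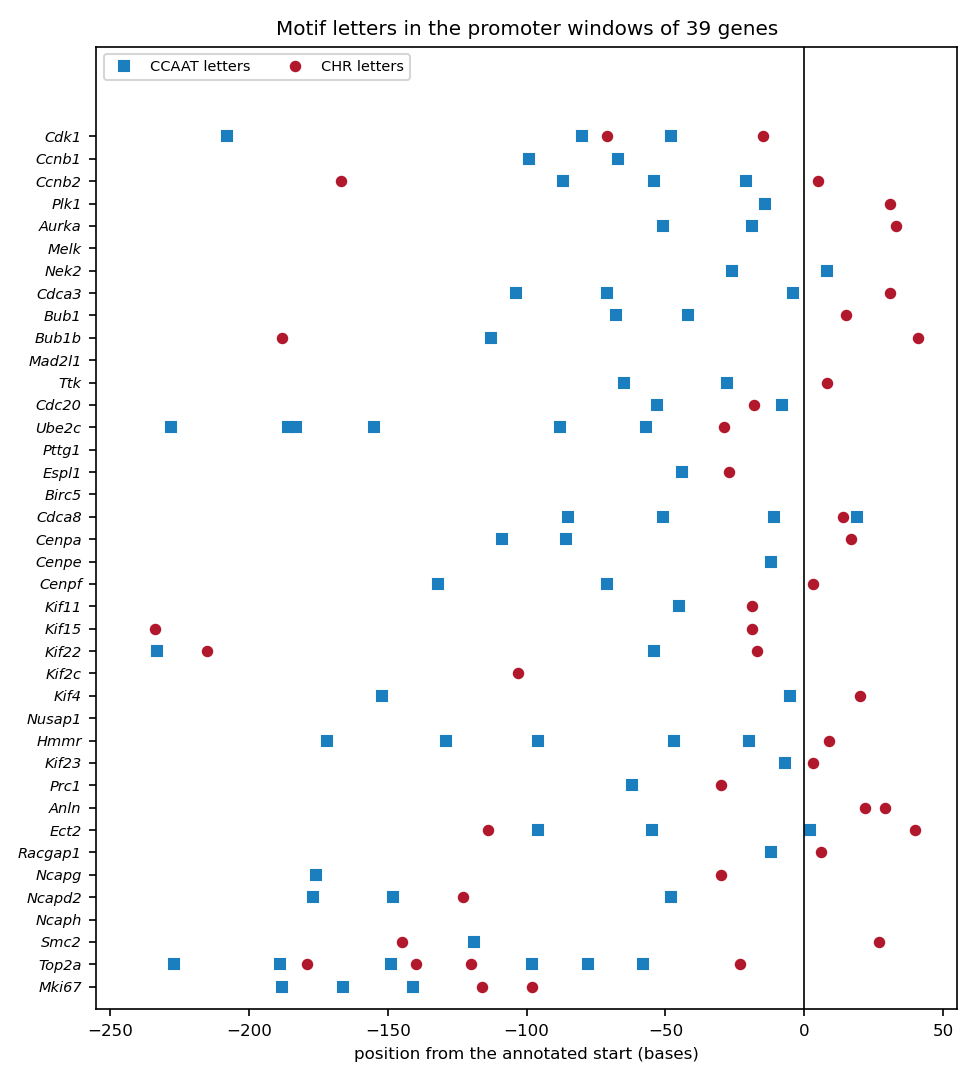
Positions of CHR letters (red circles) and CCAAT letters (blue squares) in the promoter windows of 39 genes of the list; the horizontal axis is the first base of each match relative to the annotated start, in bases, 1 row is 1 gene, and for Prc1 and Ect2, which have 2 windows, 1 is drawn. CHR letters crowd near the start, with 27 of the 39 genes having them between -60 and 50.

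The signals are on a linear scale that brings the trimmed mean of every array to 500, so RNA content per uterus is not recorded. Izumo1r was below the filter in every group, with ranges of 19.0 to 72.4 in wild type with saline, 13.5 to 54.8 in wild type with folinic acid, 7.0 to 70.2 in mutants with saline and 6.14 to 41.3 in mutants with folinic acid; the ranges overlap, and where the probe set lies relative to the mutation is not known, so it does not check the genotype labels. All 8 uterine markers fixed for the tissue, among them Hoxa10 and Pgr, were above the filter. Of 9 markers of oocytes and early embryos, 2 (Gata6 and Eomes) were above it, and Pou5f1, Nanog and Cdx2 had median signals of 42.4, 3.47 and 6.5. The ratio of 3′ to 5′ actin signal, a measure of RNA integrity, ran from 1.54 to 3.64 over the arrays.

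The level of the list as a whole varied widely among single uteri, also within groups. The mean log2 signal of the 41 genes, each gene set to 0 over the 14 arrays, was -0.06, 0.31, 0.15 and 0.36 in wild type with saline, and -0.01, -0.13 and 0.66 in wild type with folinic acid. In mutants with saline it was 0.34, -0.60 and 0.74, and in mutants with folinic acid 0.06, -1.04, -0.34 and -0.42. The supplemented mutants held the lowest uterus and 3 of the 4 lowest, and 1 saline-treated mutant lay among them. Group means were 0.19 ± 0.19 (SD, n = 4), 0.17 ± 0.42 (n = 3), 0.16 ± 0.69 (n = 3) and -0.44 ± 0.46 (n = 4) in the same order. Of the sum of squares of this mean, 65.7% lay within groups. That share rests on 10 residual degrees of freedom beside 4 group means, so it does not weigh uteri against groups. From the lowest to the highest uterus the mean spanned 3.45-fold. With bulk tissue, fewer dividing cells and less of these RNAs per cell cannot be told apart.

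**Figure D2:**
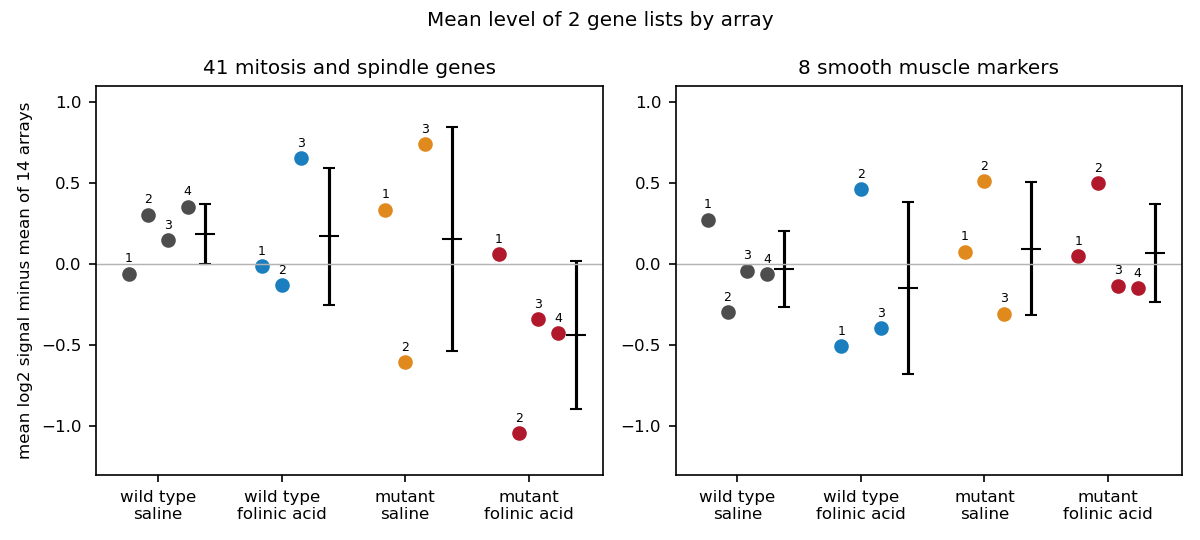
Mean log2 signal of the 41 mitosis and spindle genes (left) and of 8 smooth muscle markers (right) in each uterus, relative to the mean of the 14 arrays; points carry the replicate number, and horizontal and vertical bars are the group mean and SD. The supplemented mutants have the lowest group mean on the left and the lowest uterus, replicate 2 at -1.04, but their replicate 1 at 0.06 lies above 3 wild-type uteri, and the saline-treated mutants spread from -0.60 to 0.74.

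Nearly all of the genes shared this order of uteri. Over the 14 arrays, 38 of the 41 genes had a Pearson correlation above 0.5 with the mean of the other genes of the list, the median was 0.893, and within groups, after each group mean was removed, the median was 0.863. Correlations above 0.8 were held by 31 of the 41 (75.6%) against 0.719% of the 11269 genes above the filter. The closest were Cenpf, a large kinetochore protein of late cycle cells (0.99), Top2a, the topoisomerase that disentangles sister chromatids (0.97), Tpx2, which activates Aurora A on spindle microtubules (0.96), and Cdca8, the passenger complex subunit borealin (0.96). The mutant with folinic acid of replicate 2 had the lowest signal for 31 of the 41 genes, and the mutant with saline of replicate 3 had the highest for 20. These correlations describe libraries that share their scaling, and genes on one array are not independent of each other.

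Foxm1, Pttg1 and Wee1 were the 3 exceptions, with correlations of -0.32, -0.27 and 0.02. Foxm1 encodes a transcription factor of late-cycle genes, and its signals were 203, 220.4, 342 and 128 in wild type with saline, 159.6, 263 and 196 in wild type with folinic acid, 192, 245 and 188 in mutants with saline and 175, 227, 231 and 189.8 in mutants with folinic acid. Its groups overlapped throughout. The other 3 Foxm1 probe sets, all below the filter, gave differences of -2.32, -0.43 and 0.10 between supplemented and saline-treated mutants in a fit without the filter, so the probe sets of this gene disagree. Pttg1 encodes securin, which holds separase inactive until anaphase, and its signals were 9601, 8446, 12417 and 8399 in wild type with saline, 8406, 9630.5 and 9662 in wild type with folinic acid, 8648, 11808 and 8850.3 in mutants with saline and 11200.3, 9095, 9848 and 9654 in mutants with folinic acid. These 14 values ran from 8399 to 12417, both in wild type with saline, and the groups overlapped. Its other 2 probe sets, both above the filter, had correlations of 0.44 and 0.06 with the mean of the list. They gave -0.11 and 0.43 between supplemented and saline-treated mutants. The Pttg1 set carries the suffix s_at, which Affymetrix gives to sets whose probes match several transcripts. The sets used for Nek2, Cdca8 and Prc1, which do follow the list, carry the same suffix.

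**Figure D3:**
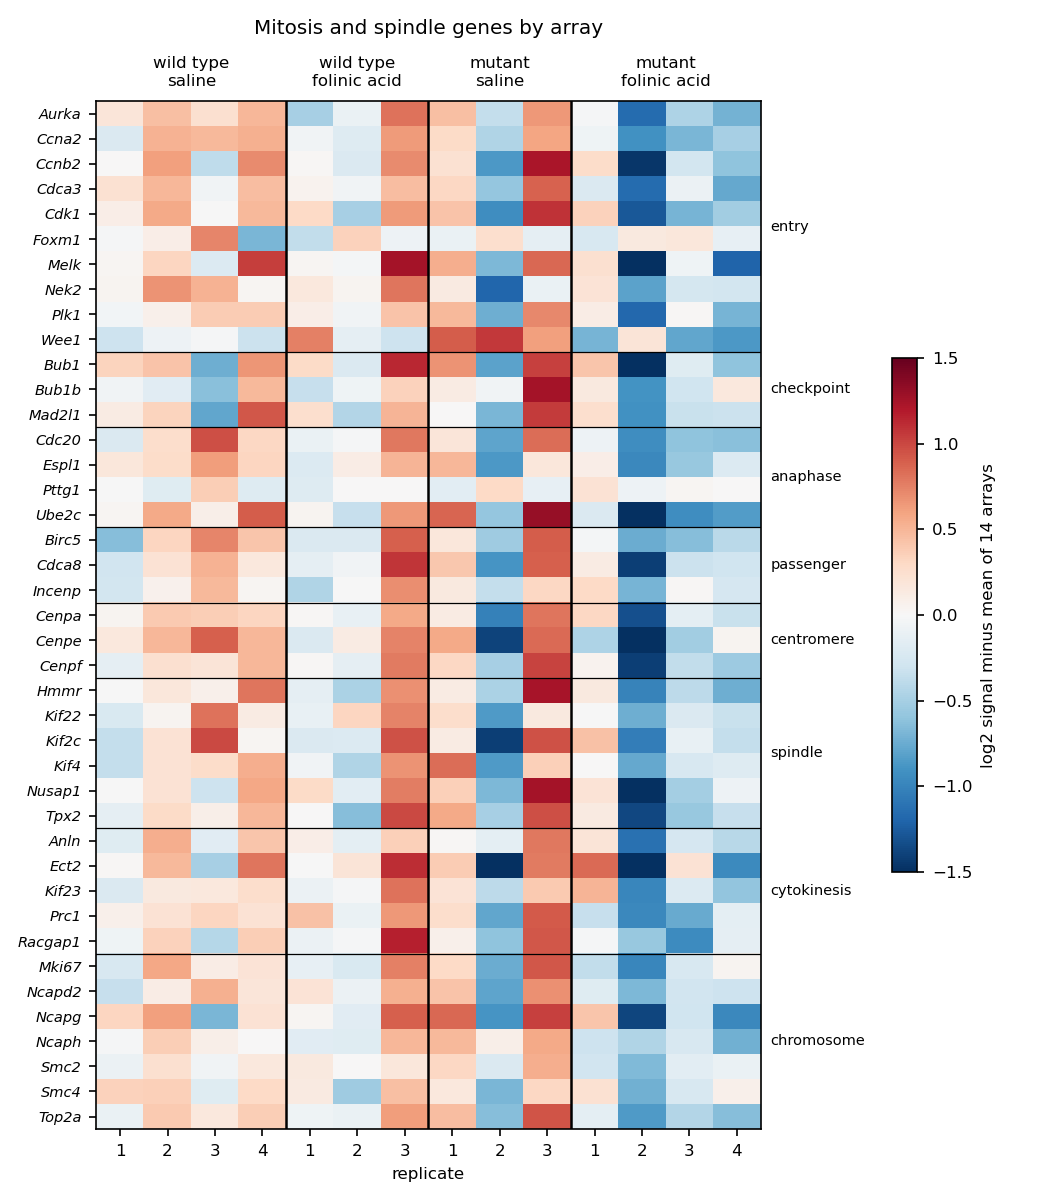
Log2 signal of each of the 41 genes (rows, grouped by role) in each uterus (columns, by group and replicate), minus the mean of that gene over the 14 arrays; colours saturate at 1.5 in either direction. Columns are mostly of 1 colour, with the mutant with folinic acid of replicate 2 blue for 39 of the 41 genes, and the rows of Foxm1, Pttg1 and Wee1 depart from the others.

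The supplemented mutants had lower mean mitotic signals than either group they were set against, but no gene of the list passed the test. Against mutants with saline, 39 of the 41 genes were lower, with a median log2 difference of -0.63, which is 1.55-fold lower, where 49.8% of all 11269 genes were lower and their median was 0.00. An unadjusted p under 0.05 was reached by 10 of the 41, all lower (24.4%), against 6.94% of all genes. After Benjamini-Hochberg adjustment over all 22519 probe sets, no gene of the list and 0% of the probe sets were called by limma at 0.05, and the smallest adjusted p of the list was 0.120. Against wild type with folinic acid, the median was -0.64, 39 of 41 were lower (53.3% of all genes), and 12 of the 41 (29.3%), all lower, had an unadjusted p under 0.05 against 2.42% of all genes. In that comparison 0.00444% of the probe sets, none of them of the list, passed the adjusted threshold. The comparisons share the 4 supplemented mutant arrays, so they are not independent of each other. Some genes had more than 1 probe set above the filter, and of these 17 other sets, 15 had the sign of the set used within mutants (median -0.43) and 16 under folinic acid (median -0.53); standard errors of other sets are from a fit without the filter.

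Single uteri carried much of these values. Against mutants with saline, the median was -0.99 without saline mutant replicate 2 and -0.28 without saline mutant replicate 3, and -0.40 without supplemented mutant replicate 2. The 10 genes with an unadjusted p under 0.05 became 31 without saline mutant replicate 2, 21 without supplemented mutant replicate 1, and 3 without saline mutant replicate 1, saline mutant replicate 3 or supplemented mutant replicate 2. With the lowest uterus of each mutant group left out together, a choice made after the data were seen, the median was -0.86 and the count 23. Against wild type with folinic acid, the median was -0.38 without wild-type replicate 3 and lay between -0.44 and -0.78 with any 1 other array left out. The 12 genes became 1 without that wild-type array, 22 without supplemented mutant replicate 1 and 3, 6 and 5 without its replicates 2, 3 and 4. With array weights, which give arrays far from their group less weight, the counts were 5 and 2, and the median under folinic acid was -0.40. The share of all genes was not computed in these settings, so the changed counts cannot be read as particular to the list.

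**Figure D4:**
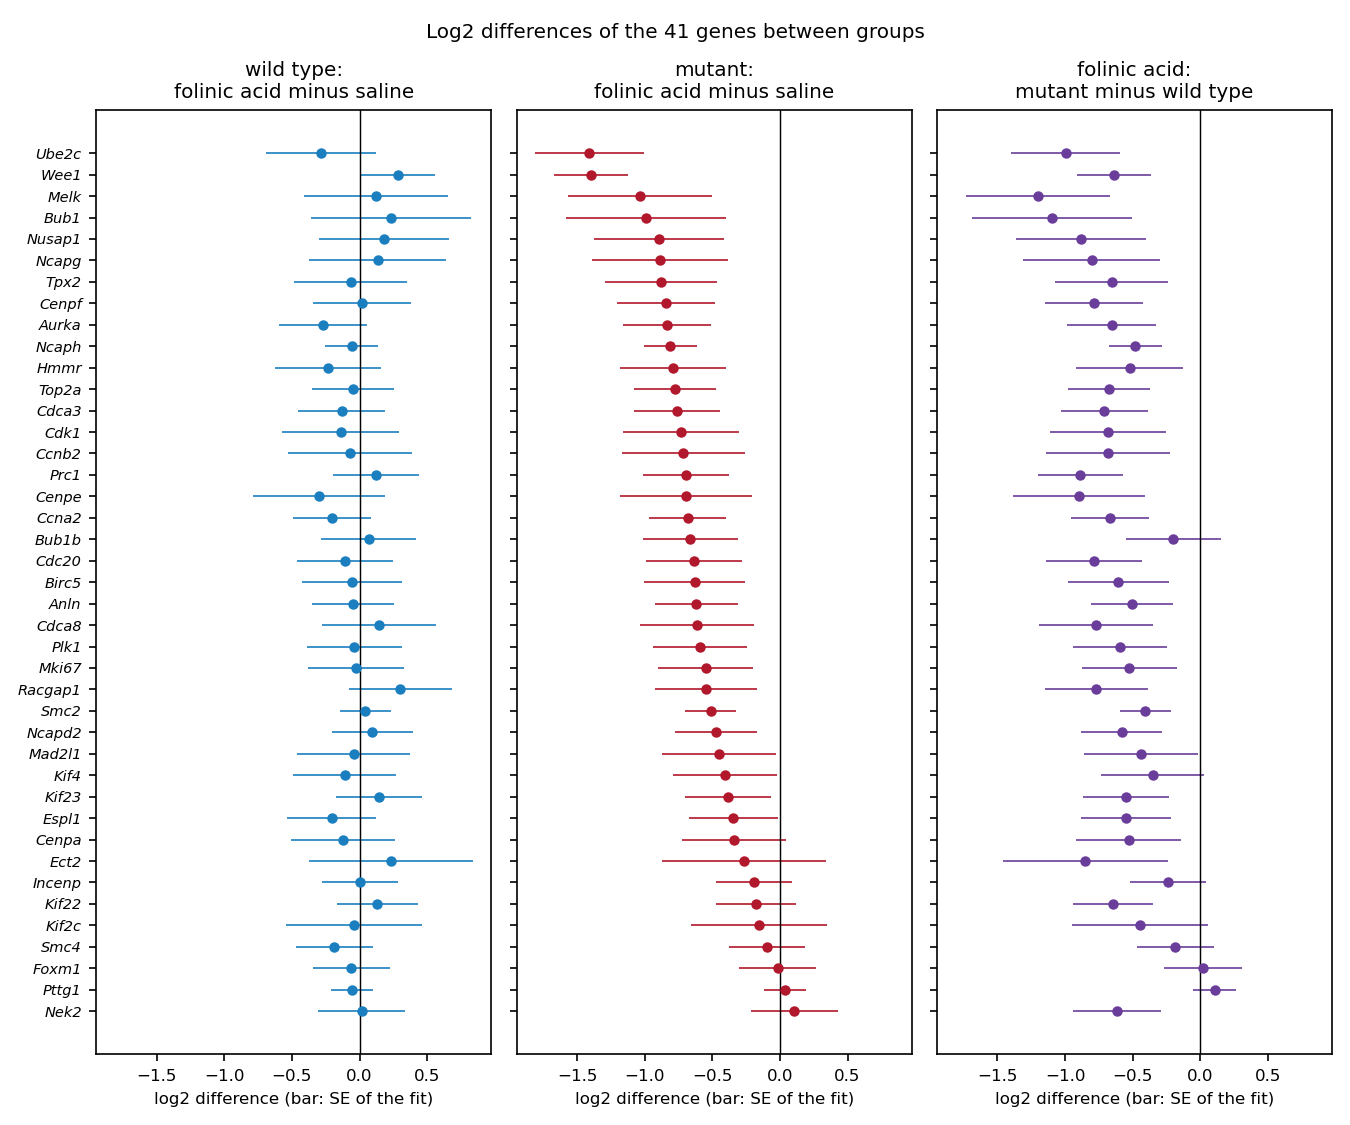
Log2 differences of the 41 genes, ordered by the difference between supplemented and saline-treated mutants, in wild type (left), in mutants (middle) and between genotypes under folinic acid (right); points are estimates of the linear model and bars their standard errors. Points scatter around 0 in wild type, and 39 of 41 lie below 0 in each of the other panels.

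Among the genes of mitotic entry, 9 of the 10 measured were lower in supplemented than in saline-treated mutants, with a median of -0.72. Cdk1 had signals of 681, 944, 633 and 889.6 in wild type with saline, 781, 449.6 and 992 in wild type with folinic acid, 856, 333 and 1347 in mutants with saline and 811, 263, 391 and 443 in mutants with folinic acid. The mutant groups overlapped, with a low uterus among the saline-treated and a high one among the supplemented, and the difference was -0.73 ± 0.43 (SE; adjusted p = 0.502). Ccna2, the A-type cyclin of S phase and early mitosis, had signals of 569, 951, 928 and 961 in wild type with saline, 639, 576 and 1029.9 in wild type with folinic acid, 808, 484 and 997 in mutants with saline and 633, 354, 412 and 467 in mutants with folinic acid, with differences of -0.68 ± 0.29 within mutants and -0.67 ± 0.29 under folinic acid. The highest supplemented mutant lay above the lowest supplemented wild-type uterus, so the groups overlapped. Aurka, the centrosome kinase Aurora A, had signals of 296, 355, 308 and 368 in wild type with saline, 185, 244 and 458 in wild type with folinic acid, 357, 204 and 411 in mutants with saline and 258, 117, 190.0 and 160.0 in mutants with folinic acid. It was -0.84 ± 0.33 within mutants and -0.27 ± 0.33 within wild type, where 1 uterus of 3 was high. Ccnb2, Plk1 and Cdca3, whose product helps to remove Wee1, differed by -0.71 ± 0.46, -0.59 ± 0.35 and -0.76 ± 0.32 within mutants.

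Wee1, the kinase that holds Cdk1 inactive, followed another pattern than the other entry genes. Its signals were 408, 479, 498 and 403 in wild type with saline, 851, 459.9 and 408 in wild type with folinic acid, 949, 1053 and 771 in mutants with saline and 311, 576, 294 and 279 in mutants with folinic acid. The saline-treated mutants lay above all wild-type uteri with saline, as for 2.22% of all genes, and above all supplemented mutants. No other gene of the list was without overlap between the genotypes under saline in that direction. Wee1 was -1.40 ± 0.27 in supplemented against saline-treated mutants (adjusted p = 0.120 by limma) and 1.04 ± 0.27 in mutants against wild type under saline (adjusted p = 0.9998, unadjusted p = 0.00166). The first difference passed the threshold, with an adjusted p of 0.0164, when supplemented mutant replicate 2 was left out, and with array weights at 0.04997; over the other settings it ranged from 0.0612 to 0.350. A second Wee1 probe set, below the filter, gave -1.10 ± 0.37 and 0.67 ± 0.37 for the same differences. In wild type, folinic acid against saline gave 0.29 ± 0.27. Within groups, Wee1 correlated at -0.62 with the mean of the other genes, so uteri with low mitotic signals tended to have more Wee1: the supplemented mutant of replicate 2 had the highest Wee1 of its group and the lowest level of the list.

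**Figure D5:**
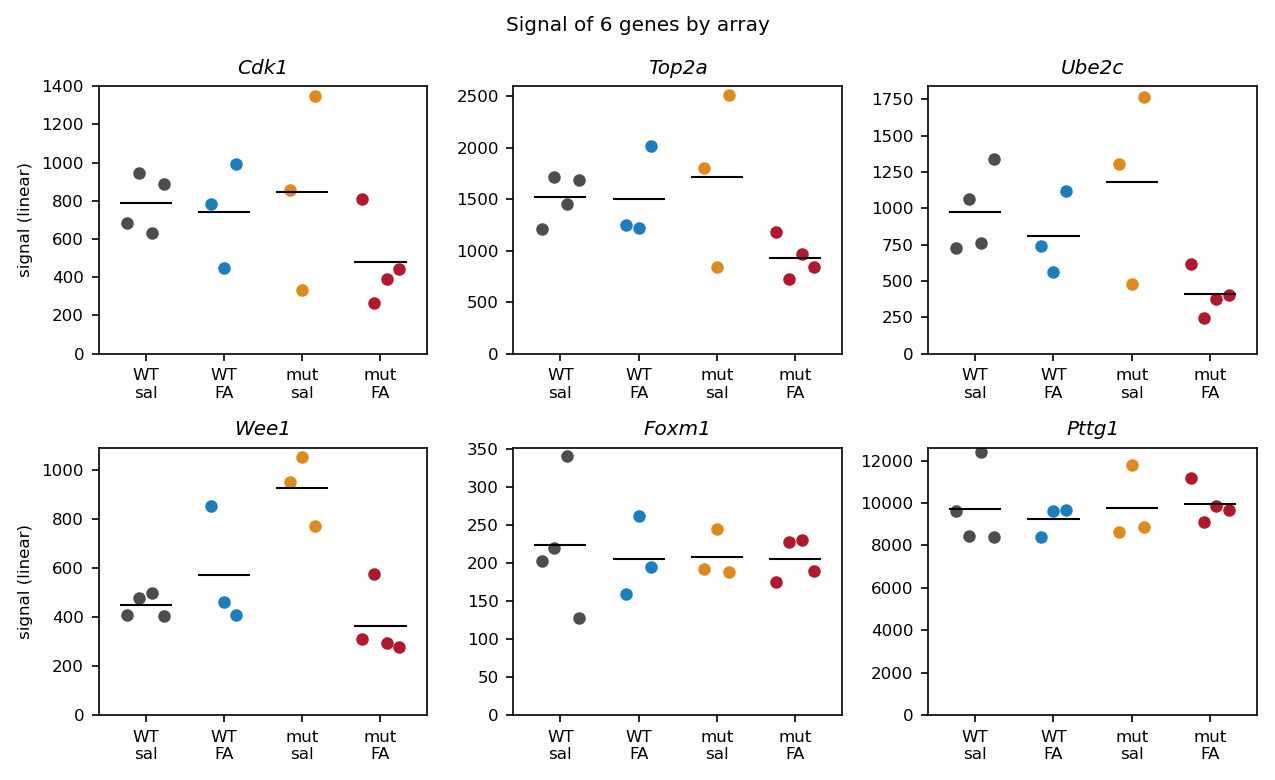
Linear signal of 6 genes in each uterus; points are arrays, horizontal bars group means, and the vertical axes start at 0. Cdk1, Top2a and Ube2c share 1 low saline-treated mutant and 1 high one, Wee1 is high in all 3 saline-treated mutants, and Foxm1 and Pttg1 overlap in all groups.

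Nek2, a kinase that separates centrosomes, was the only entry gene above 0 within mutants through the probe set used, at 0.11 ± 0.32. Its signals were 278, 432, 389 and 276 in wild type with saline, 301, 278 and 471 in wild type with folinic acid, 297, 118 and 251 in mutants with saline and 312, 155, 225 and 224 in mutants with folinic acid. It was -0.71 ± 0.32 in saline-treated mutants against wild type with saline, and its 3 other probe sets, all dim, gave 0.04, 0.23 and -0.54 there. Between supplemented and saline-treated mutants these 3 sets gave -0.58, -0.63 and 0.16, so the sets of Nek2 disagree. Melk, a kinase of dividing cells, had -1.03 ± 0.53 within mutants and -1.20 ± 0.53 under folinic acid. This standard error is pooled over all 14 arrays, and Melk was spread in every group. Its signals ran from 215 to 509 in wild type with saline and 243 to 589 in wild type with folinic acid. In mutants they ran from 156 to 449 with saline and from 56.5 to 293 with folinic acid.

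The spindle checkpoint delays anaphase until every chromosome is attached. Its 3 measured genes, Bub1, Bub1b and Mad2l1, were all lower in supplemented mutants, by -0.99 ± 0.59, -0.66 ± 0.35 and -0.45 ± 0.42 against saline-treated mutants. Bub1b, which encodes the checkpoint protein BubR1, had signals of 264, 244, 178 and 385 in wild type with saline, 215, 262 and 349 in wild type with folinic acid, 299, 264 and 654 in mutants with saline and 303, 148, 222 and 307 in mutants with folinic acid. A single saline-treated mutant at 654 exceeded all others, and under folinic acid the genotypes differed by -0.20 ± 0.35. In saline-treated mutants against wild type with saline, Bub1b was 0.53 ± 0.35.

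Anaphase genes divided. Ube2c, the ubiquitin-conjugating enzyme of the anaphase-promoting complex, had the largest difference of the 41 genes within mutants. Its signals were 729, 1065, 761 and 1341 in wild type with saline, 738, 561 and 1120.5 in wild type with folinic acid, 1308, 478 and 1766 in mutants with saline and 614, 246, 377 and 402 in mutants with folinic acid. Of the 4 supplemented mutants, 3 lay below every uterus of the other groups, while replicate 1 lay above the saline-treated mutant of replicate 2, giving -1.41 ± 0.40 (adjusted p = 0.187) within mutants and -0.99 ± 0.40 (adjusted p = 0.999) under folinic acid. Cdc20, the activator of that complex, was -0.64 ± 0.35 and -0.78 ± 0.35, and its second probe set above the filter gave -1.08 and -0.96. Espl1, which encodes separase, was -0.34 ± 0.33 and -0.55 ± 0.33. Pttg1, its inhibitor, was 0.04 ± 0.16 and 0.11 ± 0.16. The 14 core subunits of the complex itself did not share this pattern: 6 were lower and 8 higher within mutants, with a median of 0.03, and 8 lower and 6 higher under folinic acid.

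Passenger complex and centromere genes were lower in supplemented mutants in all 6 measured cases. Birc5 (survivin), Cdca8 (borealin) and Incenp differed by -0.63 ± 0.37, -0.62 ± 0.42 and -0.19 ± 0.28 against saline-treated mutants. Aurkb, the kinase of that complex, was below the filter, with signals of 155, 111 and 294 in saline-treated and 145, 11.8, 69.9 and 84.7 in supplemented mutants. Cenpa, the centromeric histone, Cenpe, a kinetochore motor, and Cenpf differed by -0.34 ± 0.39, -0.69 ± 0.49 and -0.84 ± 0.36. Under folinic acid, mutants differed from wild type by -0.53 ± 0.39, -0.90 ± 0.49 and -0.79 ± 0.36 for the same genes.

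The 6 measured spindle genes were all lower in both comparisons, with medians of -0.60 and -0.58. Tpx2, Nusap1, which bundles spindle microtubules, and Hmmr, a spindle-associated hyaluronan receptor, had the largest differences within mutants, of -0.88 ± 0.42, -0.89 ± 0.48 and -0.79 ± 0.39. The motors Kif22, Kif2c and Kif4 were at -0.18 ± 0.30, -0.16 ± 0.50 and -0.41 ± 0.38. The first 2 values come from sets with the suffix x_at, and other sets of these genes differed in size: a second Kif22 set above the filter gave -0.89 ± 0.53, and 3 Kif2c sets below it gave -0.88, -0.30 and -1.75. A second Tpx2 set above the filter gave -1.14. Ttk, Kif11, Kif15, Dlgap5 and Kif20a were dim, like Aurkb: Kif11 had a mean signal of 115, and the first gene inside the filter, Ncapg, one of 134.7. Of these 6 dim genes, 4 were lower in supplemented than in saline-treated mutants and 5 lower than in wild type with folinic acid.

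Cytokinesis genes were lower in supplemented mutants in all 5 measured cases, with medians of -0.55 within mutants and -0.77 under folinic acid. Prc1, which crosslinks the microtubules of the central spindle, had the smallest p under folinic acid. Its signals were 498, 547, 586 and 546 in wild type with saline, 637, 440.4 and 737 in wild type with folinic acid, 566, 275 and 891 in mutants with saline and 369.6, 240.0, 278 and 426 in mutants with folinic acid. All 4 supplemented mutants lay below all 3 wild-type uteri with folinic acid, and the difference was -0.89 ± 0.32 (adjusted p = 0.999, unadjusted p = 0.0138). Racgap1, the partner of Kif23 in the centralspindlin complex, had signals of 224, 296, 174 and 301 in wild type with saline, 221, 231 and 524 in wild type with folinic acid, 246, 153 and 445 in mutants with saline and 231, 158, 122 and 213 in mutants with folinic acid. It was 0.30 ± 0.38 in wild type with folinic acid, where 1 uterus of 3 was high, and -0.77 ± 0.38 in mutants under folinic acid. Kif23, Anln, which scaffolds the contractile ring, and Ect2, which activates RhoA there, were -0.55 ± 0.32, -0.50 ± 0.30 and -0.85 ± 0.61 in the latter comparison.

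All 7 genes of chromosome structure were lower in both comparisons. Ncaph, a condensin I subunit, had signals of 767, 998, 822 and 777 in wild type with saline, 692, 684 and 1093 in wild type with folinic acid, 1084, 826 and 1152 in mutants with saline and 625, 567, 658 and 470.0 in mutants with folinic acid. The supplemented mutants lay below every uterus of both other groups they were set against, and Ncaph was -0.81 ± 0.20 (adjusted p = 0.139) and -0.48 ± 0.20 (adjusted p = 0.999). Its set carries the suffix x_at, as do the sets used for Cdc20, Incenp, Kif22 and Kif2c. That suffix is given to sets with probes that can bind other transcripts. A second Ncaph set above the filter gave -0.85 and -0.53. Smc2, the ATPase shared by both condensins, had signals of 878, 1107, 899 and 1045 in wild type with saline, 1035, 937 and 1052 in wild type with folinic acid, 1163, 802 and 1361 in mutants with saline and 769, 590.1, 838 and 876 in mutants with folinic acid. It was -0.51 ± 0.19 and -0.41 ± 0.19, with supplemented mutants below all supplemented wild-type uteri, while its partner Smc4 was -0.10 ± 0.28 and -0.18 ± 0.28.

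Top2a had signals of 1215, 1716, 1459 and 1684 in wild type with saline, 1253, 1219 and 2021 in wild type with folinic acid, 1806, 842 and 2512 in mutants with saline and 1182, 727, 966 and 838 in mutants with folinic acid. All supplemented mutants were below all supplemented wild-type uteri, and Top2a was -0.78 ± 0.30 and -0.67 ± 0.30. A second Top2a set above the filter gave smaller differences, -0.22 ± 0.38 and -0.32 ± 0.38. Mki67, which encodes the proliferation marker Ki-67 that coats mitotic chromosomes, had signals of 1166, 2056, 1487 and 1582 in wild type with saline, 1268, 1178 and 2325 in wild type with folinic acid, 1694, 821 and 2629 in mutants with saline and 1068, 696, 1167 and 1414 in mutants with folinic acid. Its supplemented group overlapped every other group, with -0.55 ± 0.35 and -0.52 ± 0.35. Supplemented mutants lay below all saline-treated mutants for 2 of the 41 genes, Wee1 and Ncaph (4.88%, against 5.76% of all genes). They lay below all supplemented wild-type uteri for 6, Cdca3, Prc1, Ncapd2, Ncaph, Smc2 and Top2a (14.6%, against 3.27%).

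Folinic acid in wild type left the list near 0. The median was -0.04, 24 of 41 genes were lower (58.5%, against 46.5% of all genes), and none had an unadjusted p under 0.05, which 1.1% of all genes had in the lower and 1.23% in the higher direction; 0% of probe sets were called. The sign of this median rested on single uteri: it was -0.28 without supplemented wild-type replicate 3, 0.06 without replicate 1 and 0.13 without replicate 2, and lay between -0.11 and 0.02 with any 1 saline wild-type uterus left out. Mutants with saline against wild type with saline gave a median of -0.03 and 26 of 41 lower (63.4%, against 50.6%). There Wee1 (higher) and Nek2 (lower) had unadjusted p-values under 0.05, which 1.28% and 1.54% of all genes had in those directions, and no gene of the list was among the 0.00444% of probe sets called. That median was 0.39 without saline mutant replicate 2 and -0.32 without replicate 3, -0.09 without replicate 1, between -0.12 and 0.02 with any 1 wild-type uterus left out, and 0.02 after quantile normalization.

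The test of the difference between the genotypes' responses called no gene of the list, and 0% of all probe sets. The median difference of differences was -0.57, with 37 of 41 genes lower against 51.8% of all genes, and 2 genes (4.88%), Wee1 and Ncaph, had an unadjusted p under 0.05 in that direction against 2.9% of all genes. Wee1 had the largest value, -1.68 ± 0.39 (adjusted p = 0.905, unadjusted p = 5.61e-04), followed in p by Ncaph at -0.75 ± 0.28, Smc2 at -0.55 ± 0.27 and Ube2c at -1.13 ± 0.57. The median was -0.27 without saline mutant replicate 3, -0.34 without supplemented wild-type replicate 3, -0.38 without supplemented mutant replicate 2 and -0.98 without saline mutant replicate 2, when the count was 18. With array weights it was -0.32, and the count was 4 without supplemented wild-type replicate 2 and 1 without replicate 3. Here too the share of all genes was not computed with arrays left out.

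Other lists of cell division genes differed in how closely they followed this one across uteri. The mean of 62 further mitosis genes had r = 0.98 and Spearman's rho = 0.98 with the mean of the list over the 14 arrays (0.97 without the 2 uteri farthest from the median), and 50 DNA replication genes had r = 0.91 and rho = 0.83 (0.85). The 34 regulators of the cycle had r = 0.64 and rho = 0.30 (0.11), the 14 subunits of the anaphase-promoting complex r = 0.50 and rho = 0.57 (0.51), and the 10 cohesin genes r = 0.06 and rho = 0.12 (0.41). Of the 62 mitosis genes, 53 were lower in supplemented than in saline-treated mutants (85.5%, against 49.8% of all genes), with a median of -0.45. Against wild type with folinic acid, 57 were lower (91.9%, against 53.3%), with a median of -0.38. An unadjusted p under 0.05 in that direction was reached by 18 (29.0%, against 6.94% of all genes) and 13 (21.0%, against 2.42%), none after adjustment. Spc25, a subunit of the Ndc80 kinetochore complex, was -1.13 ± 0.30 and -1.10 ± 0.30. Cdc25a, 1 of the 9 and 5 genes that were higher, was 0.59 ± 0.17 and 0.23 ± 0.17. Of the 50 replication genes, 40 and 45 were lower (80% and 90%, against 49.8% and 53.3% of all genes), with medians of -0.26 and -0.41. The 10 cohesin genes had 5 lower and 5 higher, then 4 lower and 6 higher, and the 34 regulators had 16 and 18 lower. Among those regulators, E2f7, a repressor induced in S phase, was -1.09 ± 0.37 and -0.96 ± 0.37. Cdkn1a, which encodes the cyclin kinase inhibitor p21, was 0.59 ± 0.19 under folinic acid, where Cdkn2c was -0.40 ± 0.17. Within mutants, Ccng1 was -0.68 ± 0.21, while Rb1 and E2f3 were higher, at 0.47 ± 0.16 and 0.52 ± 0.18.

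Of all measured genes outside the list, Pclaf, a PCNA clamp-associated factor, Cep55, an abscission protein, and Aspm, a spindle pole protein, followed its mean most closely, at r = 0.98, 0.97 and 0.96 over 14 arrays. At the other end stood Klhdc8b at -0.93. These 4 genes were named by rank over 11269 genes after their values were seen.

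Markers of other cell types varied beside the list. The mean of 8 of 8 smooth muscle markers, all above the filter, had r = -0.65 and rho = -0.56 with the mean of the list (-0.73 within groups, -0.36 without the 2 farthest uteri). It was highest in saline mutant replicate 2, supplemented mutant replicate 2 and supplemented wild-type replicate 2, at 0.51, 0.50 and 0.46, which are the uteri with the lowest mitotic level of their groups. Summed signals of these markers ran from 92396 to 122132 in wild type with saline, 75042 to 112180 in wild type with folinic acid, 93028 to 148644 in mutants with saline and 91873 to 129418 in mutants with folinic acid, and 5 of 8 were higher in supplemented than in saline-treated mutants, with a median of 0.07. Against wild type with folinic acid, all 8 were higher in supplemented mutants, with a median of 0.21. Of 10 immune markers 9 were matched and 7 were above the filter, and all 7 were higher in supplemented mutants, with a median of 0.91 against saline-treated mutants and 0.55 against wild type with folinic acid. The summed signal of the 9 ran from 10451 to 25491 in wild type with saline, 12428 to 18716 in wild type with folinic acid, 10600.1 to 15393 in mutants with saline and 10694 to 51496 in mutants with folinic acid, the highest being supplemented mutant replicate 1. None of the 9 was at 0. Within mutants, 4 of the 7 had an unadjusted p under 0.05 by limma, all higher (57.1%, against 6.39% of all genes), none after adjustment. The immune mean had r = 0.13 and rho = 0.09 with the mean of the list (0.56 within groups, 0.06 without the 2 farthest uteri).

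Most stromal and uterine markers were lower in supplemented than in saline-treated mutants. Unlike the mitotic genes, the stromal markers were also lower with folinic acid in wild type. Of 10 stromal markers, among them Pdgfra, Dcn and 4 collagens, 8 were lower (80%, against 49.8% of all genes), with a median of -0.10. An unadjusted p under 0.05 was reached by 4, all lower (40%, against 6.94% of all genes), none after adjustment. Their summed signal ran from 157093 to 176988 in wild type with saline, 129973 to 140611 in wild type with folinic acid, 152706 to 186677 in mutants with saline and 143982 to 151559 in mutants with folinic acid. The mutant groups did not overlap, nor did the wild-type groups, where the mitotic median was near 0, and under folinic acid the mutants lay above the wild type. Across uteri the stromal mean had r = 0.17 and rho = 0.20 with the mean of the list (-0.05 within groups, 0.38 without the 2 farthest uteri). Of the 8 uterine markers, which share Hoxa11 with the stromal list, 6 were lower within mutants, with a median of -0.31, and 6 under folinic acid, with a median of -0.14. Their sums did not overlap within mutants, at 38706 to 50321 with saline and 28519 to 37879 with folinic acid, while wild-type uteri lay between 37583 and 38652 with saline and between 30977 and 38514 with folinic acid. The uterine mean had r = 0.63 and rho = 0.51 with the mean of the list (0.52 within groups, 0.63 without the 2 farthest uteri). Of 11 epithelial markers, 7 were lower within mutants and 7 under folinic acid, with medians of -0.14 and -0.09. The epithelial mean had r = 0.22 with the mean of the list (0.50 without the 2 farthest uteri). The mean of 7 endothelial markers had r = 0.37 (0.13). The 2 embryo and 2 adipocyte markers above the filter had r = -0.58 (-0.36) and 0.08 (0.14). The part of any of these cell types and of the uterine markers in the mitotic differences was not tested. The actin ratio had r = -0.01 with the mean of the list. In wild type with saline, replicate 3, which had the highest actin ratio, the genes scattered around their mean with an SD of 0.469, the third largest of the 14 arrays, and 7 genes had their highest signal there; the part of RNA integrity in that scatter was not tested.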

How the data were processed

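Biotin-labelled total RNA of 14 mouse uteri was hybridised to one-colour Affymetrix arrays, 1 array per sample. The deposited values are linear signal intensities per probe set, made by the authors with MAS5 per the submitters' processing notes (version not given in the sources used here); the trimmed mean of every array was 500. Intensities below 1 (0.505% of values) were raised to 1 before log2. Probe sets whose mean log2 reached the median of the 45037 non-control sets (signal 134) were kept, 22519 in all. All 14 arrays entered 1 fit of 4 group means in limma 3.58.1 (R 4.3.3; lmFit, eBayes with trend), tested two-sided, with Benjamini-Hochberg adjustment over all kept sets and calls at an adjusted p under 0.05; the script was tested on simulated data. Shares of all genes use 1 probe set per gene (11269 genes). Differences are log2 with standard errors of the fit. The number of arrays, 3 or 4 a group, limits the precision. The genes and lists were chosen with earlier results of these data known, so their counts and medians carry no test of their own. Genes given in every sample were the 4 with the smallest p in each comparison and Cdk1, Mki67, Top2a, Foxm1 and Wee1, together with Pttg1, added after its values were seen; of other lists, up to 2 genes a direction with the smallest p were eligible. Names came from the platform annotation: 34945 probe sets had 1 symbol, 932 several and 9160 none. The labels call the replicates biological, but a pair of wild-type arrays in each treatment shares a title number of unstated meaning. Whether replicate numbers pair the arrays is not stated. Of 19 same-numbered pairs, 6 had a correlation of deviations above 0.1. The highest was 0.35, for the saline-treated and supplemented mutants of replicate 2. Differently numbered pairs were not examined, so these values do not decide whether the numbers mark a pairing. Promoter windows were RefSeq's (GRCm38.p6), searched on both strands for TTTGAA or TTCGAA (CHR) and CCAAT; all 32851 windows of 300 bases gave the background.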

Additional observations from a re-analysis of the deposited data

Results flagged for a closer look

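In 3 of the 82 sets of 4 arrays examined gene by gene over the 41 genes, 1 array lay far from the other 3 by Dixon's criterion at 95%, where chance gives about 1 in 20. Smc4 in wild type with saline was 1889.8 in replicate 3, below the other 3 uteri. Ccna2 in the same group was 569 in replicate 1, below the other 3. Wee1 in mutants with folinic acid was 576 in replicate 2, above the other 3, and without that array its difference from saline-treated mutants had an adjusted p of 0.0164 in place of 0.120.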

How the results depend on the processing

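The sign of the median log2 difference of the list held under every alternative run for mutants with folinic acid against mutants with saline, against wild type with folinic acid, and for the difference of the responses: over the other normalizations, filters, probe set rules and variance models it ran from -0.70 to -0.42, -0.64 to -0.40 and -0.65 to -0.32, and with 1 array left out from -0.99 to -0.28, -0.78 to -0.38 and -0.98 to -0.27. For folinic acid in wild type and for genotype under saline, medians with 1 array left out ran from -0.28 to 0.13 and from -0.32 to 0.39, and the share of genes lower from 19.5% to 95.1% and from 9.76% to 87.8% (9.76% with the lowest uterus of each mutant group left out). Counts with an unadjusted p under 0.05 in the lower direction ran, with 1 array left out, from 3 to 31, from 1 to 22 and from 1 to 18 in the first 3 comparisons. They were 5 and 2 with array weights in the first pair, 7 under folinic acid with the actin ratio as a covariate, and 23, 5 and 12 with the lowest uterus of each mutant group left out. No share of all genes was computed beside the counts of any alternative. Genes of the list past the adjusted threshold numbered 0 to 1 with 1 array left out and 1 with array weights for mutants with folinic acid against mutants with saline, the 1 being Wee1; the cause was not tested.

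What arrays of the same replicate number share is not stated. With the replicate block, medians were -0.66, -0.63 and -0.65 in the same 3 comparisons, the count for the difference of the responses became 7, and Foxm1 changed to 0.12 within mutants. With the number in the titles as a random block the medians were -0.63, -0.64 and -0.59.

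Single genes near 0 changed sign. With 1 array left out, or the lowest uterus of each mutant group, the differences ran, for folinic acid in mutants, from -0.83 to 0.0746 for Cenpa, -0.99 to 0.20 for Ect2, -0.0866 to 0.11 for Foxm1, -0.53 to 0.024 for Kif22, -0.81 to 0.38 for Kif2c, -0.85 to 0.0146 for Mad2l1, -0.30 to 0.37 for Nek2, -0.0433 to 0.22 for Pttg1 and -0.40 to 0.0976 for Smc4. For mutants against wild type with folinic acid they ran from -0.36 to 0.0257 for Bub1b, -0.15 to 0.21 for Foxm1, -0.51 to 0.0693 for Incenp and -0.46 to 0.0316 for Smc4. For folinic acid in wild type they ran from -0.64 to 0.0166 for Aurka, -0.10 to 0.52 for Racgap1 and -0.0389 to 0.49 for Wee1. Array weights turned Smc4 (0.0343), Ect2 (0.0592) and Kif2c (0.11) within mutants, and Smc4 (0.0389) and Foxm1 (-0.0599) under folinic acid. The actin ratio as a covariate turned Foxm1 in both, to 0.20 and -0.0514. Dim signals limit the 6 genes below the filter, and a change in the RNA of all genes at once cannot be seen after scaling.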
